A study of Homo sapiens with 16 samples.

Results

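Cytosolic ribosomal protein genes encode the proteins that, with ribosomal RNA, build the large and the small subunit of the ribosome in the cytoplasm. Every row of the expression table whose symbol is RPL or RPS followed by a number, with an optional A, X, L or L1 ending, was taken, together with RPLP0, RPLP1, RPLP2 and RPSA. The Y-linked copies of RPS4 were left out. This gave 84 of 23260 symbols, 52 for the large subunit and 32 for the small subunit. After a filter on low values, 81 were tested, 50 large and 31 small. Among the 3 that did not pass were RPL3L and RPL10L, paralogs that stayed at or below 0.2796 and 1.295 FPKM (fragment numbers scaled to transcript length and to the mapped fragments of the library, the unit of all values below). FAU, RPL36AL and GNB2L1, which also encode ribosomal proteins, fall outside the symbol rule and are described with the comparison lists.

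The tumors were xenografts of A375, a human melanoma line with an activating BRAF mutation, grown on both flanks of immunodeficient NOG mice. Each of 4 groups held 4 tumors from 2 mice, 16 tumors in all. J+V tumors received the BET bromodomain inhibitor JQ1 at 50 mg/kg daily and the BRAF inhibitor Vemurafenib at 25 mg/kg 2 times a day, J tumors received JQ1 alone, V tumors received Vemurafenib alone, and control tumors received vehicle, all by intraperitoneal injection until day 5. Total RNA was depleted of ribosomal RNA and sequenced. All tumors come from 1 cell line, tumors of a mouse share a host, and NOG mice keep their own stroma, blood vessels and myeloid cells. A tumor is named here by its mouse number and flank, so that 33L and 33R are the left and right tumor of mouse 33.

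Cells put a large share of their transcription and translation into ribosomal proteins, and assembly uses 1 copy of most of them per ribosome. Most of their mRNAs begin with a C followed by a run of pyrimidines, the 5′ terminal oligopyrimidine (TOP) tract, which binds LARP1 and makes their translation, more than their amount, depend on the mTOR kinase. MYC, a gene that BET inhibitors are known to lower in many cells, is a known activator of ribosome production. The mRNA amounts given here do not measure translation.

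Start sites were read from RefSeq on GRCh38.p14, where 67 of the 84 members had an entry. A C at the first transcribed base followed by at least 4 pyrimidines, read on the transcribed strand, stood at a start of 47 of these 67 genes (70.1%), against 5.14% of 27305 genes in the same table. With the run allowed to begin anywhere within 10 bases of the start, the share was 86.6% of members, against 38.4% of all genes. The lines below show the 30 bases around the start, with the first transcribed base at position 16 of the line and the longest such run that begins within 10 bases of it in capitals. They were chosen to show the members lower in J+V tumors that have an entry (RPS26, RPS7, RPS19, RPS27L and RPL7L1), the paralogs beside a parent, and RPS6 and RPL27A, which stand among the highest and the lowest members by level. A second annotated start of RPS19 and of RPL26L1 is not shown.
RPS26 (chr12:56041903-56041932, plus strand): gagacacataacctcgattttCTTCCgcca
RPS7 (chr2:3575245-3575274, plus strand): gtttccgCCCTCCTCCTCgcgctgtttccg
RPS19 (chr19:41860240-41860269, plus strand): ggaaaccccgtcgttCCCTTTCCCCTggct
RPS27 (chr1:153990747-153990776, plus strand): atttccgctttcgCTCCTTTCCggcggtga
RPS27L (chr15:63157463-63157492, minus strand): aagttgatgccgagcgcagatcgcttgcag
RPL26 (chr17:8383179-8383208, minus strand): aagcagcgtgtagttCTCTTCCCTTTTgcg
RPL26L1 (chr5:172958714-172958743, plus strand): agtcttccaggggtcggcgaacgaaacgcg
RPL7L1 (chr6:42879601-42879630, plus strand): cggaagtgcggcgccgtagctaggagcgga
RPL22 (chr1:6199581-6199610, minus strand): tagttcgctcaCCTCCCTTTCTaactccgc
RPL22L1 (chr3:170870181-170870210, minus strand): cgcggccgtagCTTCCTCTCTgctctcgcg
RPL27A (chr11:8682777-8682806, plus strand): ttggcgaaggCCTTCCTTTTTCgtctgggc
RPS6 (chr9:19380222-19380251, minus strand): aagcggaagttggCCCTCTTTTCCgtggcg
RPS27 and RPL26 carry a run that covers the annotated start, and no run of this kind begins within 10 bases of the start shown for RPS27L, RPL26L1 or RPL7L1. RPL22L1 carries one, like its parent RPL22.

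The deposited table holds FPKM only, so the number of reads behind a value is unknown. The summed FPKM of the table ran between 970443 and 1406986 over the tumors, and without short RNAs between 484803 and 566188. The results below were therefore repeated with each tumor scaled in 4 other ways. The ranges of summed marker FPKM were 69.9 to 99.8 in J+V and 34.3 to 50.8 in control tumors for 5 melanoma markers (MITF, SOX10, PMEL, MLANA and S100B), and 62.4 to 114.9 in J+V and 36.2 to 121.4 in control tumors for 6 fibroblast markers. The 3 pericyte and muscle markers summed to 20.4 to 45.2 in J+V and 11.6 to 16.4 in control tumors, the 5 macrophage and white cell markers to 22.4 to 24.9 in J+V and 18.2 to 24.9 in control tumors, the 3 red cell markers to 0.5 to 3.7 in J+V and 1.5 to 4.6 in control tumors, and the 5 endothelial markers to at most 1.9 in J+V and 1.2 in control tumors. In such bulk samples fewer cells of a type and less RNA per cell cannot be told apart, and the part of these markers in any result below was not tested. The sources used here do not say how mouse reads were treated.

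Ribosomal protein mRNAs stayed at nearly the same level in all 4 groups. Their summed FPKM averaged 120753 ± 5683 in J+V, 113857 ± 4951 in J, 119991 ± 25892 in V and 121623 ± 11502 in control tumors (SD, n = 4 each). The large subunit summed to 72582 ± 3210 in J+V, 68584 ± 3200 in J, 73134 ± 15287 in V and 73891 ± 6905 in control tumors. The small subunit summed to 48170 ± 2567 in J+V, 45273 ± 1792 in J, 46857 ± 10625 in V and 47732 ± 4647 in control tumors. For all members the J+V mean was 0.993 times the control mean, and 0.858 times with each tumor scaled to the same sum over all symbols. The groups overlapped, and the spread among V tumors was the widest of the 4 groups. Of the FPKM of all symbols that are not short RNAs, the members took 23.7% ± 0.806 in J+V, 22.25% ± 0.777 in J, 23.05% ± 3.32 in V and 23.15% ± 1.45 in control tumors.

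Levels among members differed far more than the groups did. Mean FPKM over the 16 tumors ran between 10.85 for RPL39L and 6098 for RPL26, with quartiles at 492, 1172 and 2078. The median was 1191 FPKM for large and 1001 FPKM for small subunit members. The 5 highest, RPL26, RPL38, RPS27, RPS6 and RPL41, made up 21.85% of the summed FPKM. Lowest were RPL39L, RPL27A (19.3 FPKM), RPL22L1 (32.4), RPL7L1 (58.3) and RPL26L1 (73.65). Of these, RPL27A alone is not a paralog of another member, and whether its low values are its mRNA level or come from the annotation or the FPKM estimate was not tested. These are levels per length, and 13 annotated pseudogenes per member (the median) can take or lend reads, so the order of neighbouring members is uncertain.

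Most members moved together from tumor to tumor. The mean log2(FPKM + 0.5) of all kept members, set to 0 at the control mean, was -0.07 in 33L, -0.15 in 33R, -0.10 in 34L and -0.01 in 34R among J+V tumors. It was 0.01 in 26L, -0.11 in 26R, -0.11 in 29L and -0.11 in 29R among J tumors. Among V tumors it was 0.30 in 16L, -0.16 in 16R, -0.30 in 19L and -0.01 in 19R, and among control tumors -0.04 in 2L, -0.00 in 2R, -0.12 in 5L and 0.16 in 5R. The highest and the lowest tumor of the study were thus both V tumors. Tumor 16L lay above the control mean for 76 of the 81 members and 5R for 75, while 19L and 16R each did so for 5. On the log2 scale the 2 tumors of mouse 16 differed by 0.458, those of mouse 19 by 0.289 and those of mouse 5 by 0.285, while the tumors of the other mice differed by 0.005 to 0.115. The 4 group means spanned 0.081.

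**Figure D1:**
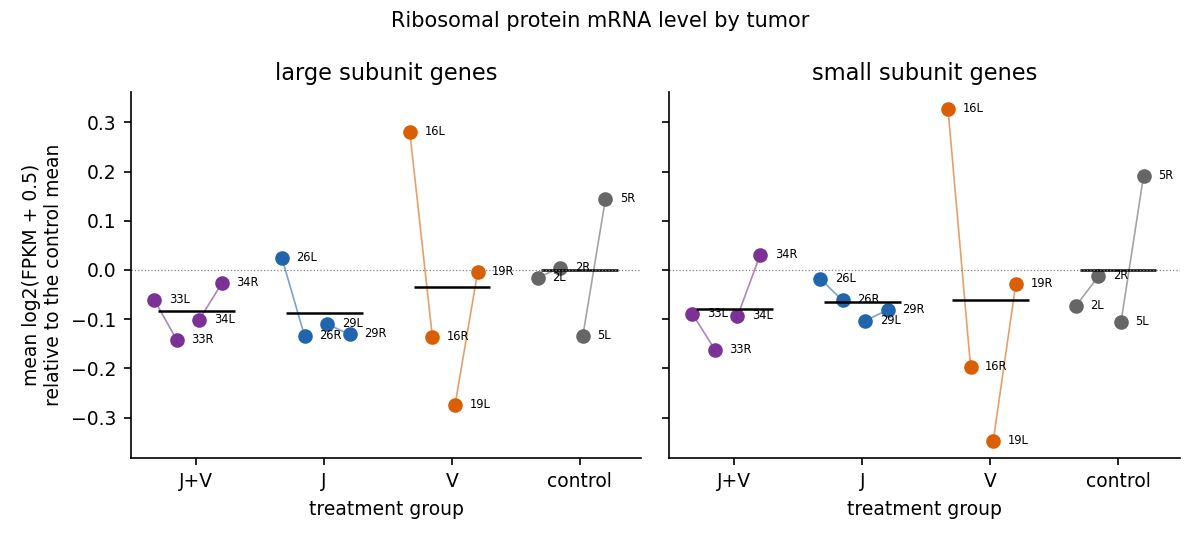
Mean log2(FPKM + 0.5) of the 50 large subunit and 31 small subunit genes in each tumor, relative to the control mean (vertical axis), by treatment group (horizontal axis). Points are tumors with their names, thin lines join the 2 tumors of a mouse and horizontal bars are group means. V tumors spread widest, with 16L highest and 19L lowest in both panels, and the 4 groups overlap.

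The 2 subunits followed each other. The large minus small difference of these means stayed between -0.07 and 0.07 in every tumor. A member's log2 value had a median correlation of 0.82 over the 16 tumors with the mean of the other members, and 46 of 81 exceeded 0.8. All members share the library and its scaling, so this is a description of these 16 libraries. The genes outside the family most like the members' mean were EEF1B2, an exchange factor for elongation factor eEF1A (r = 0.928), SOD1, superoxide dismutase (0.923), GNB2L1, which encodes the ribosome scaffold RACK1 (0.915), COX7A2L (0.913) and EEF1G, another eEF1 subunit (0.907). Below 0.3 lay 7 members, RPL27A (-0.28), RPL22L1 (-0.20), RPL28 (0.05), RPL21 (0.09), RPS27L (0.11), RPL39L (0.18) and RPS15 (0.25). The median SD within groups was 0.19 for members and 0.20 for all 13426 genes kept.

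Combined treatment against control asks what both drugs together did to these mRNAs. Of the 81 members, 6 were lower in J+V tumors (2 of 50 large, 4 of 31 small) and 0 higher at an adjusted p below 0.05 (limma, Benjamini-Hochberg over 13426 genes). That is 7.41% of members, against 37.1% of all genes in either direction and 20.5% lower. Among them were RPS26, RPS27L, RPS7, RPS19 and RPL7L1. The median log2 fold change was -0.05 for the large and -0.09 for the small subunit and -0.03 for all genes, and the median size of the change was 0.12 for members and 0.27 for all genes. On the deposited scale, the only one for which intervals were counted, the 95% interval of 72 of the 81 lay wholly within a 1.5-fold change either way. For 78 it lay within 2-fold. The FPKM of J+V and control tumors did not overlap for 8 members, against 29.3% of all genes.

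The number of members called depended on the scale chosen for the tumors. With each tumor scaled to the same sum over all symbols, which moved the median of all genes to -0.22, 25 members were lower and 0 higher. In that fit 41.3% of all genes were called, and 85.3% of all calls were lower, against 55.4% on the deposited scale. Quantile normalization gave 18 lower and 2 higher (RPL10 and RPS28), with 37.7% of all genes called and 50.3% of all calls lower. A common sum without short RNAs gave 6 lower and 1 higher (RPS28), with 35.0% of all genes called. Upper quartile scaling gave 5 lower, with 38.4% of all genes called. With each tumor centred on the mean of the ribosomal protein genes themselves, an alternative added after the data were seen, 3 members were lower (RPS26, RPS7 and RPS19) and 8 higher (among them RPL39, RPL31, RPS28, RPL10A, RPS4X, RPS25 and RPS18), against 24.8% of all genes called in that fit. The members set their own scale there, so their changes must nearly balance around 0. Its calls are relative to the family and cannot show that a member rose. Leaving out single tumors gave between 2 members called, without 5L, and 9, without 5R, with 3 called without 33R, and leaving out mouse 33 gave 1. The share of all genes called moved too, to 25.9% without 5L, 39.1% without 5R, 30.8% without 33R and 21.1% without mouse 33.

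**Figure D2:**
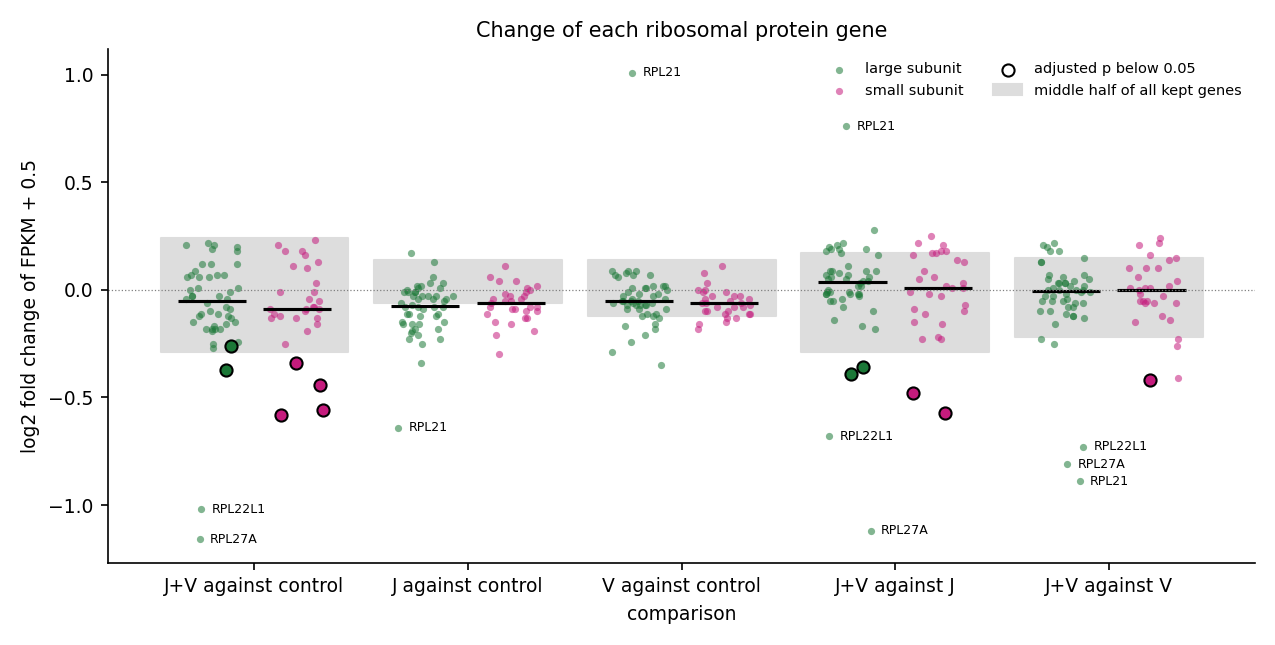
Log2 fold change of FPKM + 0.5 (vertical axis) of each of the 81 kept members in 5 comparisons (horizontal axis), large and small subunit apart. Outlined points have an adjusted p below 0.05, black bars are subunit medians and grey boxes hold the middle 50% of all 13426 genes. The outlined points, 6, 4 and 1 of them in the 3 comparisons of J+V, all lie below 0, and the subunit medians stay near 0.

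RPS26 (chr12:56435135-56438481 on GRCh37, plus strand), a small subunit protein that contacts the mRNA, showed the largest called decrease. It stood at 305, 302, 327 and 358 FPKM in J+V tumors, 400, 462, 472 and 467 in J, 500, 381, 369 and 497 in V, and 416, 479, 492 and 554 in control tumors. The J+V tumors are all below every tumor of the other groups. Its log2 fold change was -0.58 ± 0.114 (SE) against control, a fold of 0.668 (adjusted p = 0.00139, limma), -0.48 ± 0.114 against J (adjusted p = 0.00738) and -0.42 ± 0.114 against V (adjusted p = 0.0249). The call against control held in all 38 alternatives, with adjusted p between 0.000323 and 0.0236. The call against J was lost without mouse 29 or mouse 33 (adjusted p = 0.101 and 0.0825). The call against V was lost in 10 of 38, among them the fits without tumor 16L, 19R, 33L, 33R or 5L (adjusted p = 0.0693, 0.0976, 0.0662, 0.0647 and 0.0964 in limma) and that on the means of each mouse's tumors (adjusted p = 0.0847). RPS26 has 36 annotated pseudogenes, which may share its reads. Outside the family, genes most like it over the 16 tumors were PSME3, a proteasome activator subunit (r = 0.987), SAE1, the SUMO-activating enzyme subunit (0.984) and PSMB6, a proteasome subunit (0.983).

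RPS7 (chr2:3622850-3628510, plus strand), a small subunit protein that also binds MDM2, stood at 1060, 865, 1031 and 1141 FPKM in J+V tumors and 1360, 1414, 1357 and 1388 in control tumors, with 1060 to 1290 in J and 1017 to 1649 in V tumors. Its J+V and control tumors do not overlap. The log2 fold change was -0.44 ± 0.133 (adjusted p = 0.0188, limma), lost without 33R (adjusted p = 0.0569) or 5L (adjusted p = 0.0761). RPS19 (chr19:42364325-42376993, plus strand), the gene most often mutated in Diamond-Blackfan anemia, stood at 463, 461, 511 and 532 FPKM in J+V tumors and 551, 638, 572 and 741 in control tumors. These do not overlap either, though the nearest tumors, 34R and 2L, are close. Its log2 fold change was -0.34 ± 0.12 (adjusted p = 0.0375, limma), and the call was lost in 12 of 38 alternatives, the most of the 6 members, among them those without 33L, 33R, 2R, 5L or 5R (adjusted p = 0.0856, 0.0835, 0.0583, 0.0724 and 0.108) and the fit on the means of each mouse's tumors (adjusted p = 0.0718).

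**Figure D3:**
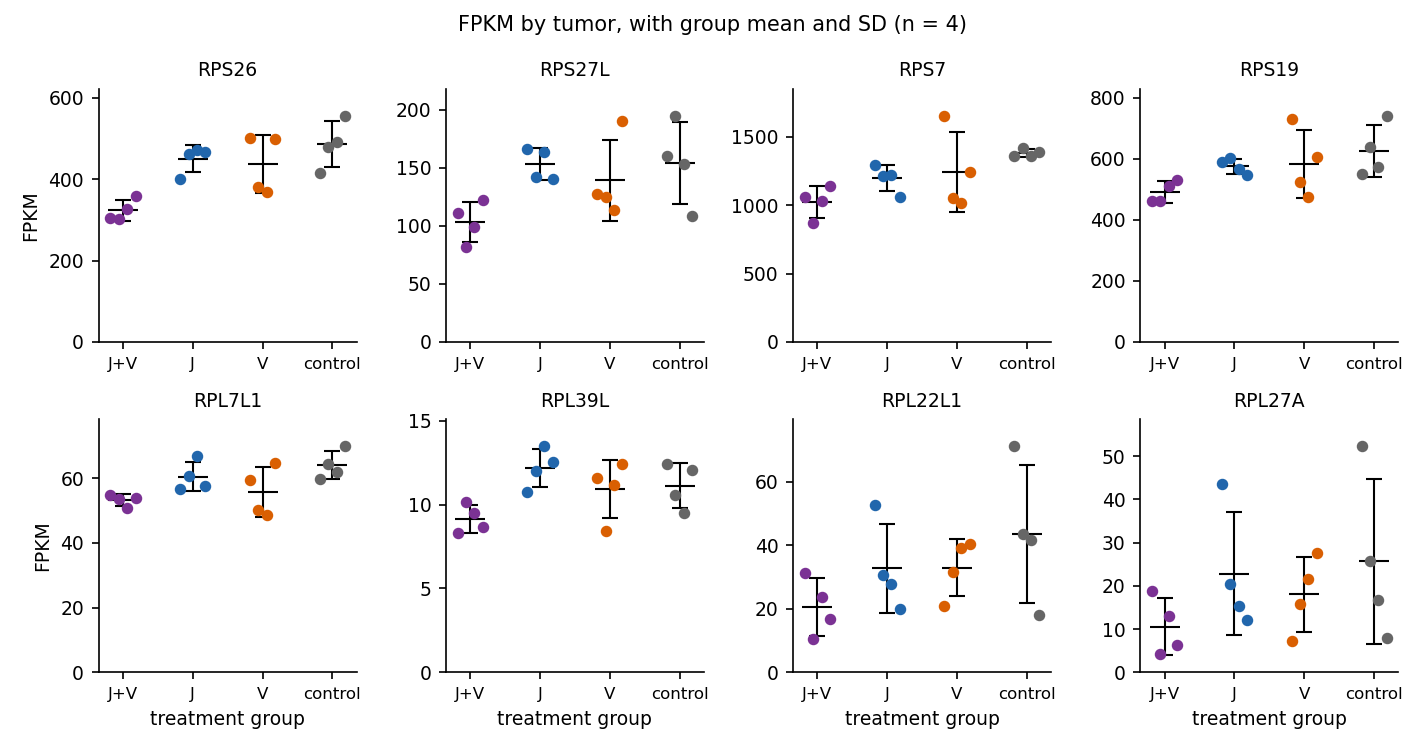
FPKM (vertical axis, from 0) of 8 members in each tumor, by treatment group (horizontal axis). Points are tumors and bars are group means ± SD (n = 4). For RPS26 the 4 J+V tumors, at 302 to 358 FPKM, lie below all others. RPL22L1 and RPL27A are shown for their spread, and RPL22L1 has control tumors between 17.98 and 71.11 FPKM.

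A group of members have paralogs, whose symbols end in L or L1 and which were much lower than their parents. RPS27L (chr15:63418071-63450220, minus strand), a p53 target gene, stood at 111, 81.4, 99.1 and 122 FPKM in J+V tumors, 166, 142, 163 and 141 in J, 127, 125, 114 and 191 in V, and 160, 194, 153 and 108 in control tumors. The control tumor 5R is within the J+V range, and the other 3 are above it. Its log2 fold change was -0.56 ± 0.175 against control (adjusted p = 0.0218, limma) and -0.57 ± 0.175 against J (adjusted p = 0.0255). The call against control was lost without 33R, 2R or 5L (adjusted p = 0.0666, 0.0641 and 0.105), and that against J without 26L, 29L, 33R or 5L (adjusted p = 0.0592, 0.0655, 0.0746 and 0.0824) and on the means of each mouse's tumors (adjusted p = 0.0543). Its parent RPS27 stood at 6177, 5745, 6320 and 6313 FPKM in J+V tumors and 4963, 5424, 5279 and 6408 in control tumors, a log2 fold change of 0.16 ± 0.141 (adjusted p = 0.396, limma). RPS27L thus amounted to 1.68% ± 0.231 of RPS27 in J+V, 2.97% ± 0.225 in J, 2.68% ± 0.81 in V and 2.85% ± 0.821 in control tumors (SD, n = 4). Over the 16 tumors the 2 genes had a correlation of -0.47.

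RPL7L1 (chr6:42847354-42857663, plus strand), a paralog of RPL7 found in pre-ribosomes, stood at 54.6, 53.7, 50.7 and 53.9 FPKM in J+V tumors and 59.7, 64.2, 61.9 and 69.8 in control tumors. The 2 groups do not overlap. Its log2 fold change was -0.26 ± 0.0847 (adjusted p = 0.0259, limma), lost without 34L, 5L or 5R (adjusted p = 0.0535, 0.0836 and 0.0679) and under quantile normalization (adjusted p = 0.122). RPL7 itself was at 2355 ± 127 FPKM in J+V and 2249 ± 165 FPKM in control tumors (SD, n = 4). RPL39L (chr3:186838736-186898696, minus strand), a paralog known for its expression in testis, stood at 8.283, 10.18, 9.489 and 8.649 FPKM in J+V tumors, 10.73 to 13.47 in J, and 12.45, 10.57, 9.496 and 12.04 in control tumors. Its level fell in J+V relative to J tumors (log2 fold change -0.39 ± 0.114, adjusted p = 0.0204, limma), lost without 29L, 29R, 33L or 5L (adjusted p = 0.067, 0.0509, 0.054 and 0.0553) and in the fit on mouse means (adjusted p = 0.0557), and had -0.27 ± 0.114 against control (adjusted p = 0.0788). Its parent RPL39 was at 3545 ± 232 FPKM in J+V and 3100 ± 175 FPKM in J tumors.

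RPL22L1 (chr3:170582664-170587997, minus strand), which can stand in for RPL22, varied more between tumors than the other paralogs. It stood at 31.4, 10.4, 23.6 and 16.8 FPKM in J+V tumors, 52.6, 30.7, 27.7 and 19.8 in J, 20.7, 31.5, 39.2 and 40.4 in V, and 71.11, 43.39, 41.68 and 17.98 in control tumors. The groups overlap through the control tumor 5R. Its log2 fold change against control was -1.02 ± 0.392 (adjusted p = 0.053, limma), and without 5R it was -1.39 (adjusted p = 0.00925). RPL22L1 was also called with flank as a term (adjusted p = 0.0373) and with a common sum over all symbols (-1.23, adjusted p = 0.0208). Other calls came with a filter at a mean FPKM of at least 5 and without mouse 5 (-1.52, adjusted p = 0.0149). It was called without 33L, 26L or 29R as well (adjusted p = 0.0337, 0.0436 and 0.0481). Most alternatives gave no call. RPL22 was at 472 ± 34.0 FPKM in J+V and 511 ± 27.6 FPKM in control tumors. RPL26L1 stood at 70.8 ± 5.65 FPKM in J+V and 76.9 ± 5.97 in control tumors, a log2 fold change of -0.12 ± 0.111 (adjusted p = 0.421), and RPL26 at 6527 ± 461 FPKM in J+V and 6117 ± 336 in control tumors. All 5 kept paralogs had a negative log2 fold change, as did 53 of the 81 members and 7037 of all 13426 genes. Of the 5 paralogs 2 passed the test, against 37.1% of all genes called. RPL3 (483 ± 11.3 FPKM in J+V and 433 ± 97.6 in control tumors) and RPL10 (164 ± 14.2 FPKM in J+V and 146 ± 31.0 in control tumors), parents of the paralogs that were not kept, were not called.

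**Figure D4:**
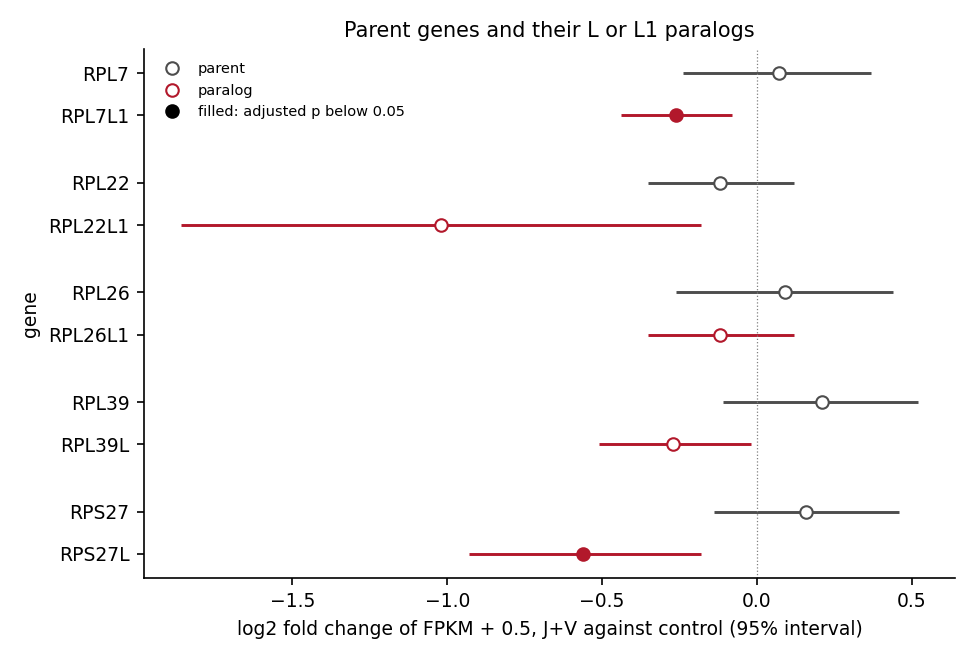
Log2 fold change of FPKM + 0.5 in J+V against control tumors (horizontal axis) with its 95% interval, for 5 parents and their paralogs (vertical axis). Filled points, RPL7L1 and RPS27L, have an adjusted p below 0.05. The interval of RPL22L1, between -1.86 and -0.18, is the widest.

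RPS6, RPL5, RPL11, RPLP0, RPLP1, RPLP2 and RPSA were not called in any comparison on the deposited scale. RPS6, the small subunit protein that S6 kinases phosphorylate, stood at 4487, 4471, 4465 and 5138 FPKM in J+V tumors and 4325, 4160, 3758 and 5121 in control tumors (log2 fold change 0.10, 95% interval -0.24 to 0.44). RPL5 and RPL11 bind the 5S RNA and can inhibit MDM2. RPL11 stood at 2189 ± 138 FPKM in J+V and 2240 ± 218 in control tumors, and RPL5 at 822 ± 51.9 in J+V and 930 ± 23.8 in control tumors (SD, n = 4). For RPL5 the J+V tumors, at 759 to 877 FPKM, and the control tumors, at 908 to 956, did not overlap, and its log2 fold change was -0.18 ± 0.122 (adjusted p = 0.263, limma). The stalk proteins RPLP0, RPLP1 and RPLP2, which recruit elongation factors, had log2 fold changes of -0.16, -0.03 and -0.01, and RPSA, also known as the laminin receptor precursor, -0.09. Quantile normalization and the common sum over all symbols called RPL5 lower (adjusted p = 0.0295 and 0.036), and quantile normalization also RPLP0 (adjusted p = 0.0414).

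No member was called higher in J+V tumors on the deposited scale. Among the largest increases against control were those of RPL13A (632 ± 49.7 FPKM in J+V and 552 ± 139 in control tumors, log2 fold change 0.22 ± 0.174, adjusted p = 0.331 in limma) and RPL31 (4389 ± 243 in J+V and 3814 ± 339 in control tumors, 0.21 ± 0.141, adjusted p = 0.267). RPS28 had 371 ± 25.1 FPKM in J+V and 324 ± 49.9 in control tumors, a log2 fold change of 0.21 ± 0.101 (adjusted p = 0.122, limma). Without the control tumor 5R, which was high for most members, 3 members were called higher: RPS28 (adjusted p = 0.013, limma), RPL3 (0.0426) and RPL28 (0.0484). In that fit 39.1% of all genes were called.

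RPL27A and RPL21 stood apart from the rest. RPL27A (chr11:8704335-8736306, plus strand) was at 18.7, 4.28, 12.9 and 6.23 FPKM in J+V tumors, 43.6, 20.3, 15.3 and 12.2 in J, 7.22, 15.9, 21.6 and 27.6 in V, and 52.3, 25.7, 16.8 and 8.02 in control tumors. Tumors within each group spread widely, and the groups overlap. Its mean of 19.3 FPKM stands against a median of 1172 over members, and since an effect of the annotation or the FPKM estimate was not tested, its values and folds are those of the table and may not be its mRNA level. Its log2 values followed those of RPL22L1 (r = 0.96) and of CRTAP, a collagen hydroxylation factor (0.991), TMEM19 (0.99) and EIF2S3, an initiation factor subunit (0.988), more closely than the mean of the family. Against control its log2 fold change was -1.16 ± 0.563 (adjusted p = 0.119, limma), and without 5R it was -1.60 (adjusted p = 0.0363). RPL21, which has 133 annotated pseudogenes, the most of any member, was at 103, 441, 162 and 431 FPKM in J+V, 248, 40.9, 251 and 151 in J, 618, 652, 348 and 267 in V, and 127, 290, 251 and 246 in control tumors. Values spread widely within the J+V and V groups. The J tumors all lie below the V tumors, with a log2 fold change of -1.65 ± 0.548 (adjusted p = 0.233, limma). None of its comparisons passed the test.

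The single drugs were compared with control and with the combination. Neither J nor V tumors had a member called against control, with 0.0% of all genes called in either comparison (limma). At an unadjusted p below 0.05 there were 0 members and 8.49% of all genes in J, and 1 member, RPL7L1 (log2 fold change -0.21), and 16.1% of all genes in V. The median log2 fold change was -0.08 for large and -0.06 for small subunit members in J, and -0.05 and -0.06 in V. Below 0 lay 65 members in J and 63 in V, against 5407 and 6557 of all 13426 genes. The members share each tumor's scaling, so these are not separate observations. On the deposited scale the interval lay within 1.5-fold for 76 members in J and 78 in V. J tumors differed from V tumors in 0 members, with 0.283% of all genes called, and the excess of the J+V change over both single drug changes added together passed the test for 0 members and 0.0% of all genes. At an unadjusted p below 0.05 there was 1 member in each, RPL21 in the first and RPL39L in the second. All of these comparisons except J against V use the same control tumors.

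Against J tumors, 4 members were lower in J+V tumors (4.94%) and 0 higher, against 27.0% of all genes called and 18.4% lower. Among them were RPS27L, RPS26 and RPL39L, whose values are given above. The median was 0.03 for the large and 0.01 for the small subunit, and -0.05 for all genes. The largest increase without a call was that of RPL21, followed by RPL26, at 6793, 5900, 6476 and 6939 FPKM in J+V tumors and 5906, 5048, 5334 and 5276 in J tumors (log2 fold change 0.28 ± 0.164, adjusted p = 0.224, limma), and RPS27, at 6138 ± 271 FPKM in J+V and 5155 ± 72.8 in J tumors (0.25 ± 0.141). The count of lower members was 2 without 26L, 29L or 33R, 1 without 5L and 0 without mouse 29 or mouse 33. The share of all genes called was 24.1%, 18.5% and 20.5% without 26L, 29L and 33R. It was 16.2% without 5L, 8.5% without mouse 29 and 10.7% without mouse 33. Against V tumors only RPS26 was lower and 0 members were higher, against 13.3% of all genes called and 8.31% lower. The median was -0.01 for the large and 0.00 for the small subunit. Without tumor 16L, the V tumor highest for the family, RPS26 was not called (adjusted p = 0.0693). The J+V group enters all 3 comparisons, so that their calls are not independent.

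The introns of these genes carry small nucleolar RNAs (snoRNAs), which guide the chemical modification of ribosomal RNA and are processed out of the host transcript. In the annotation 43 snoRNAs lie within member genes on the same strand, and 39 of them, in 21 hosts, passed the filter. Against control, 8 of the 39 were higher and 3 lower in J+V tumors, against 37.1% of all genes called in either direction, so that a larger share than that of all genes was not seen. Their median log2 fold change was 0.39, against -0.04 for their hosts. With a common sum over all symbols the snoRNA median was 0.17, and the median of all 81 members moved down too, from -0.08 to -0.3. SNORD36A, in RPL7A, stood at 4268, 5604, 5677 and 3445 FPKM in J+V tumors and 632, 1356, 1286 and 3710 in control tumors (1.71 ± 0.372, adjusted p = 0.00276). The groups overlap through 5R alone, and the call held in all 38 alternatives. SNORD35A, in RPL13A, was lower at 1013, 1015, 227 and 521 FPKM in J+V tumors and 1433, 1029, 1403 and 1262 in control tumors (-1.10 ± 0.384, adjusted p = 0.0352), while SNORD34 in the same gene was higher, at 7716, 17075, 10794 and 7678 FPKM in J+V tumors and 7417, 3441, 2058 and 6830 in control tumors (1.23 ± 0.382, adjusted p = 0.0203). The call of SNORD35A was lost in 13 of 38 alternatives and that of SNORD34 in 5, among them those without 33R (adjusted p = 0.0577) or 5L (adjusted p = 0.155).

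Several snoRNAs are listed at or near 0 in some tumors, so the comparison was also described for the 28 snoRNAs in 17 hosts with at least 1 FPKM in every tumor, a choice made after the values were seen. Of these 6 were higher and 2 lower, 22 had a log2 fold change above that of their host, and the median correlation with the host over the 16 tumors was 0.08. Without the control tumor 5L, which has the lowest summed FPKM of all tumors, 2 of the 39 were higher and 0 lower with a median of 0.23, and without mouse 33 2 were higher and 3 lower with a median of 0.24. The share of all genes called was 25.9% without 5L and 21.1% without mouse 33.

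**Figure D5:**
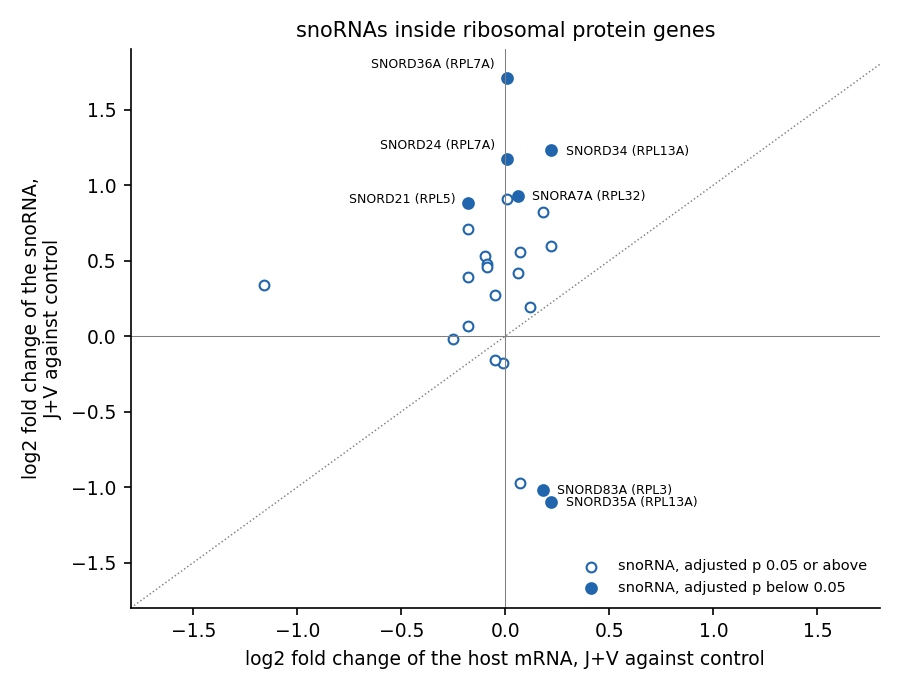
Log2 fold change in J+V against control tumors of 25 of these snoRNAs (vertical axis) and of the ribosomal protein gene that hosts each (horizontal axis). Filled points have an adjusted p below 0.05, and the dotted line marks equal change. Of the 25, 20 lie above the line, and hosts other than RPL27A stay within 0.25 of 0.

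Other genes of translation are given for comparison, from lists of other genes. Over all genes, 37.1% were called in J+V against control tumors in either direction, and 20.5% were lower. The mitochondrial ribosome, whose proteins are also nuclear-encoded, had 48 of 76 genes lower and 1 higher in J+V than in control tumors, with a median log2 fold change of -0.38, against 6 of 81 and -0.08 for the cytosolic ribosome. MRPS5 stood at 16.75, 13.12, 16.05 and 15.97 FPKM in J+V tumors and 24.28, 28.55, 27.13 and 26.04 in control tumors (-0.76 ± 0.0867, adjusted p = 4.06e-05, limma). The count of lower genes was 29 without 5L (25.9% of all genes called) and 23 without mouse 33 (21.1%). The median stayed between -0.58 and -0.28 in all alternatives. Of 36 initiation factors 15 were lower and 2 higher (47.2% called). EIF3B was at 55.5 ± 3.65 FPKM in J+V and 84.1 ± 7.20 in control tumors. EIF4A2, an RNA helicase, was higher at 411 ± 61.1 in J+V and 259 ± 28.3 in control tumors. Of 10 elongation factors and genes listed with them, such as EEF2K and EEF1E1, 1 was lower, EIF5A (85.3 ± 8.88 FPKM in J+V and 127 ± 22.1 in control tumors).

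Of 5 ribosomal protein genes outside the symbol rule 1 was lower: FAU, whose protein is cleaved into a ubiquitin-like part and RPS30, was at 149 ± 11.8 FPKM in J+V and 205 ± 23.4 in control tumors (log2 fold change -0.46 ± 0.109, adjusted p = 0.00492, limma). Among 6 other mRNAs with TOP tracts, TPT1, a growth-related protein, was higher at 3147.6 ± 235.1 FPKM in J+V and 2067 ± 268 in control tumors, and VIM, the intermediate filament vimentin, lower at 687 ± 111 in J+V and 935 ± 78.7 in control tumors. Of 18 regulators around mTOR 3 were higher and 5 lower (44.4% called, against 37.1% of all genes). DEPTOR, an inhibitor of mTOR, was at 13.6, 13.9, 10.8 and 10.3 FPKM in J+V tumors and 5.34, 3.25, 4.17 and 5.71 in control tumors (1.32 ± 0.192, adjusted p = 0.000196, limma). RHEB, its activator, was lower (35.2 ± 2.39 FPKM in J+V and 50.7 ± 1.10 in control tumors), as was EIF4EBP1, a repressor of translation that mTOR inactivates (23.3 ± 3.52 FPKM in J+V and 38.5 ± 8.92 in control tumors). Of 7 ribosomal protein chaperones and ribosome assembly factors, NOB1 included, 3 were lower (42.9%, against 20.5% of all genes). Among them was GRWD1, a chaperone of RPL3 (11.1 ± 0.941 FPKM in J+V and 17.2 ± 3.24 in control tumors). Of 23 kept rows with pseudogene symbols, which by their pattern include RPS19BP1, 4 were higher and 4 lower (34.8% called). RPS26P11, a pseudogene of the gene with the largest called decrease, was at 1.498, 2.097, 3.266 and 1.463 FPKM in J+V tumors and 3.15, 5.66, 3.46 and 3.97 in control tumors (-0.84 ± 0.255, adjusted p = 0.0181).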

How the data were processed

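RNA from 16 A375 tumors was depleted of ribosomal RNA and sequenced. The submitters' processing notes name bcl2fastq, TopHat, Cufflinks and hg19, and the authors deposited FPKM per symbol, with no versions and no depth. The study's methods tested read counts, which were not analysed here. From FPKM, log2(FPKM + 0.5) was computed for the 13426 of 23260 symbols with at least 1 FPKM in at least 4 tumors and fitted with limma 3.58.1 (R 4.3.3) over all 4 groups, with the mouse as a block (consensus correlation -0.067). p-values were adjusted by Benjamini-Hochberg over all genes kept, with calls at 0.05. Tumors of a mouse are not independent, so p-values measure mainly the spread between these tumors. The block correlation was negative, and the block did not make the test stricter. In J+V against control, 37.1% of all genes were called with it, 34.2% without a block and 28.3% on the means of each mouse's tumors. These fits called 6, 6 and 5 members. GRCh37 coordinates and pseudogenes came from GENCODE release 44 lifted to GRCh37, and start sites from RefSeq. The fit was also run on simulated data with independent noise in each tumor. These held no link between tumors of a mouse and no difference in scale between tumors. Results for some genes are not reported here, though counts and medians over members include them. Named members were the paralogs and their parents, members called or with the largest changes, those of highest and lowest level, and those with known roles outside the ribosome; RPL10A, RPL28, RPS4X, RPS15, RPS18, RPS25 and RPS28 were named after their values were seen. Members and lists were chosen with earlier results of these data known. Alternatives covered the pseudocount, filter, scaling, block, moderation and the omission of tumors and mice.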

Additional observations from a re-analysis of the deposited data

Results flagged for a closer look

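In 7 of 124 sets of 4 tumors, 1 tumor lay far from the other 3, a distance that chance alone gives in about 1 in 20 sets. The count is thus near what chance gives. The sets share tumors and in part the same values, so they are not separate observations. Among J+V tumors, 34R had 5137.8 FPKM of RPS6, with the next at 4486.6. Among J tumors, 26L stood apart in 5 sets: the summed FPKM of all members (121273.4, next 111622.0), the mean log2 value of the large subunit relative to control (0.024, next -0.11), RPL41 (4822.1 FPKM, next 4135.5), RPL7 (2660.4 FPKM, next 2172.9) and, on the low side, RPS26 (399.5 FPKM, next 461.6). Among control tumors, 5R was high for RPL3 (579.5 FPKM, next 386.5).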

How the results depend on the processing

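In J+V against control tumors, 6 members were called. The number was 25 with a common sum over all symbols (41.3% of all genes called) and 20 with quantile normalization (37.7%). It was 11 with tumors centred on the ribosomal protein genes (24.8%, chosen after seeing the data, with the members setting their own scale). With a tumor or mouse left out it was 1 to 9 (21.1% to 39.1%). The common sum also moved the median log2 fold change to -0.27 for the large and -0.3 for the small subunit, and the ratio of summed FPKM to 0.858. In J+V against J, 4 members were called, 1 with the means of each mouse's tumors (16.8% of all genes) and 0 to 4 with a tumor or mouse left out (8.5% to 33.1%). In J+V against V, 1 was called (13.3% of all genes). The number was 2 with no filter (7.5%) and 6 with a common sum over all symbols (21.5%). Quantile normalization also gave 6, with a share of all genes above 13.3%. The number was 0 with the means of each mouse's tumors (1.7%) and 0 with only the groups compared (8.4%). With a tumor or mouse left out it was 0 to 2 (2.4% to 18.2%). The cause of these changes was not tested. Fits with a tumor or mouse left out also hold fewer tumors. No member was called in the other 4 comparisons under any alternative run. The departure from the sum of both drugs could not be fitted with only the groups compared. Each group has left and right flank tumors. Flank as a term gave 7 members called against control (36.3% of all genes), 4 against J (26.1%) and 1 against V (12.3%). No analysis paired by animal was possible because each mouse belongs to 1 group. With depth unknown, the precision of low members such as RPL39L cannot be set from counts.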
